A study of Mus musculus with 6 samples.

Results

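The 10 genes described here encode neuropeptide precursors of the dorsal pons: Gal, Calca, Calcb, Cartpt, Npy, Penk, Pdyn, Tac1, Nts and Crh. They were chosen by name, as precursors made by neurons of the locus coeruleus and of 2 neighbouring cell groups, the parabrachial nucleus and Barrington's nucleus, and were found among the 56923 genes of the deposited table by their mouse Ensembl identifiers. Punches of locus coeruleus tissue from wild-type (WT) mice gave 3 libraries (numbered 62, 63 and 66), and punches from transgenic 5xFAD mice gave 3 libraries (64, 65 and 79). The 5xFAD line is a model of amyloid deposition in which mutant human APP is driven by Thy1 regulatory sequence, which is active mainly in neurons. The labels give no age, sex, treatment or batch, and do not say whether each number is 1 animal, so p-values measure only the spread between these samples, which may be technical. The series concerns tau phosphorylation, sleep loss and overexcitable locus coeruleus neurons in this model, and the comparison of genotypes asks which transcripts differed in the punched tissue.

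Neuropeptides are cut from larger precursors inside dense-core vesicles and are released mainly during strong or prolonged firing, after which they act on G protein-coupled receptors and are broken down by peptidases outside the cell. Noradrenergic neurons of the locus coeruleus are known to make galanin as a co-transmitter. Neurons of the parabrachial nucleus, lateral to it, relay pain, taste and visceral alarm and use calcitonin gene-related peptide (CGRP), substance P, neurotensin and opioid peptides. Barrington's nucleus, medial to it, controls the bladder through neurons that make corticotropin-releasing hormone.

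Both opioid precursors carry the enkephalin motif in several copies, and these are shown because gene counts of Penk and Pdyn stand for different numbers and kinds of peptide. In the longest reading frame of the longest coding transcript in GENCODE M21, Penk held 7 in-frame copies of the codons for the enkephalin core and Pdyn held 3. Of the 7 copies in Penk, 6 end in a methionine codon and 1 ends in a leucine codon, whereas all 3 copies in Pdyn end in a leucine codon. The capitals mark the 5 codons of the motif. The pairs of codons for basic residues beside them are of the kind at which such precursors can be cut, but the bases do not show which pairs are cut.
Penk, copy 1: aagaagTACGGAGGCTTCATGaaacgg
Penk, copy 6: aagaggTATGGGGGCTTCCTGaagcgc
Pdyn, copy 1: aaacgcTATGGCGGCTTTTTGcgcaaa

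Calca and Calcb, which encode the alpha and beta forms of CGRP, are near-copies over the start of the peptide. The stretch is shown because reads that lie wholly inside it cannot be told apart. The longest identical run of their reading frames was 61 bases, from coding base 226 to 286 in Calca and from 307 to 367 in Calcb. The capitals mark the identical bases.
Calca: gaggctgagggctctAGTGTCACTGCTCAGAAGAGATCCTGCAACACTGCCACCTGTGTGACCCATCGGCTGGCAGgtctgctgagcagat
Calcb: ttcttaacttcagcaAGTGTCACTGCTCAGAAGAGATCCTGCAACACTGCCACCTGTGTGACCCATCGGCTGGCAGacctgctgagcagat
Over whole transcripts, 12 of 1634 distinct windows of 50 bases in Calca occurred in Calcb (0.734%), and the same 12 made up 0.952% of the 1260 windows in Calcb. The read length and the handling of shared reads are not known, so both counts are uncertain over that stretch. The Calca count does not separate CGRP from calcitonin, which the same gene encodes by alternative splicing. Penk was the only one of the 10 with another gene on its exons in GENCODE M21, A830012C17Rik on the opposite strand, which read 0 to 4.16 normalized counts.

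The libraries held 15158712 to 20079349 reads assigned to genes, and 16411 genes passed the filter on low values, all 10 precursors among them. Values are normalized counts, which are gene counts after division by a size factor for each library. Thy1, which checks the genotype labels because its sequence is part of the transgene, read 7976 to 9090 in WT and 16885 to 22211 in 5xFAD. All 6 noradrenergic markers had reads in every library, with a summed level of 5823 to 11019 normalized counts in WT and 8424 to 12350 in 5xFAD. The parabrachial and pontine glutamatergic markers Foxp2 and Lmx1b also had reads in every library. In the cell type marker lists limma called 0 genes, against 0.00609% of all genes. Tissue beside the nucleus was also in the punches, in amounts that differed between libraries: the 4 markers of cerebellar granule cells summed to 329 to 5015 in WT and to 1743 to 6708 in 5xFAD. The 4 cholinergic markers summed to 539 to 2046 in WT and 759 to 1112 in 5xFAD, and the 3 serotonergic markers to 18.4 to 116 and 16.996 to 219. In such tissue, fewer cells of a type and less RNA per cell cannot be told apart.

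Penk, the precursor of the enkephalins, had the highest level of the 10 per transcript length. Its mean over the 6 libraries was 827 ± 158 normalized counts per kilobase (SD, n = 6), and its lowest library, at 654, lay above the highest library of every other precursor. Tac1, which encodes substance P and neurokinin A, followed at 304 ± 84.7, Calca at 218 ± 54.9 and Gal, the galanin precursor, at 199 ± 52.7. Nts, the neurotensin precursor, read 139 ± 25.2 and Crh, the corticotropin-releasing hormone precursor, 102 ± 9.47. A second gap, between Crh and the 4 lowest genes, was crossed by no library. Pdyn, the dynorphin precursor, read 58.0 ± 7.35, Npy, the neuropeptide Y precursor, 49.7 ± 11.4, Cartpt, the precursor of the CART peptides, 27.9 ± 8.79 and Calcb 12.3 ± 6.40. The other 7 pairs of neighbours in this order had ranges that overlapped, and their order held in 4 to 6 of the 6 libraries, with Gal above Nts the least steady.

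**Figure D1:**
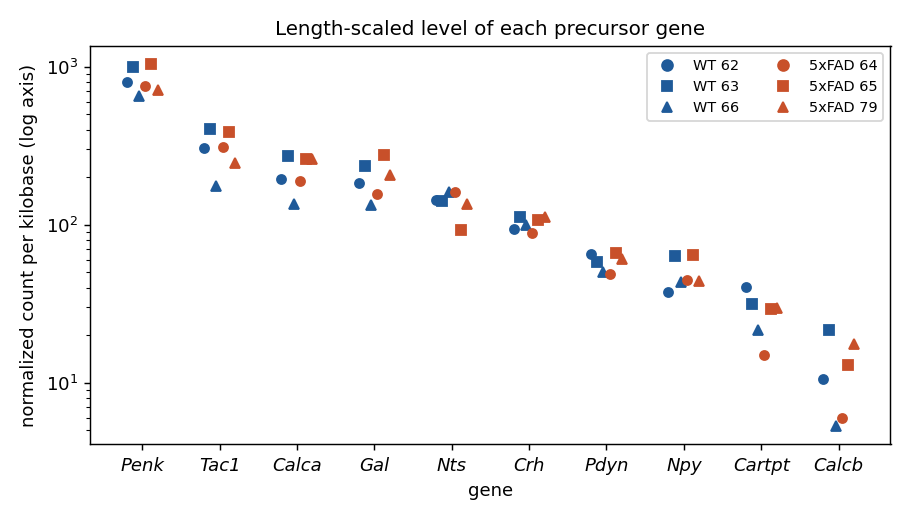
Normalized count per kilobase of transcript on a log axis for each precursor gene, 1 point per library (blue WT, orange 5xFAD). Penk stands above the rest in all libraries, from 654 to 1041, and Calcb is lowest in mean, from 5.31 to 21.5.

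None of the 10 precursors passed between the genotypes. The limma test called 0 of them at an adjusted p under 0.05, against 1 of 16411 genes (0.00609%), and 0 had an unadjusted p under 0.05, against 2.32% of all genes. The edgeR test on recovered reads called 0 of the 10, against 0.00609% of all genes, and DESeq2 called 0, against 0.0244%. The groups of 3 overlapped in every precursor, whereas they did not overlap in 7.42% of all tested genes. On the log2(normalized count + 1) scale, ratios of 5xFAD over WT (log2 ratios below) ran from −0.34 for Cartpt to 0.28 for Calca with a median of 0.04, and the median of all genes was 0.00053. These log2 ratios are differences between group means of the log2 values, so they can differ from ratios of the printed means. Of the 10, 8 had higher and 2 lower values in 5xFAD on the log2 scale, against 50.2% and 49.8% of all genes. That count was set by single libraries, with 2 higher and 8 lower without WT 66, and 1 higher and 9 lower without 5xFAD 65. In edgeR and DESeq2 on recovered reads it was 7 higher and 3 lower, with Calcb among the lower. In the authors' deposited table the same genes had log2 ratios of −0.33 to 0.24, turned to 5xFAD over WT, and adjusted p-values of 0.9999.

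The precision differed among the precursors. The 95% interval lay within a 1.5-fold change in either direction for Penk, Pdyn and Crh, or 3 of 10, against 71.4% of all tested genes. For the other 7 the interval held a change of that size in at least 1 direction. The widest interval was that of Calcb, from 0.441-fold to 2.43-fold.

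**Figure D2:**
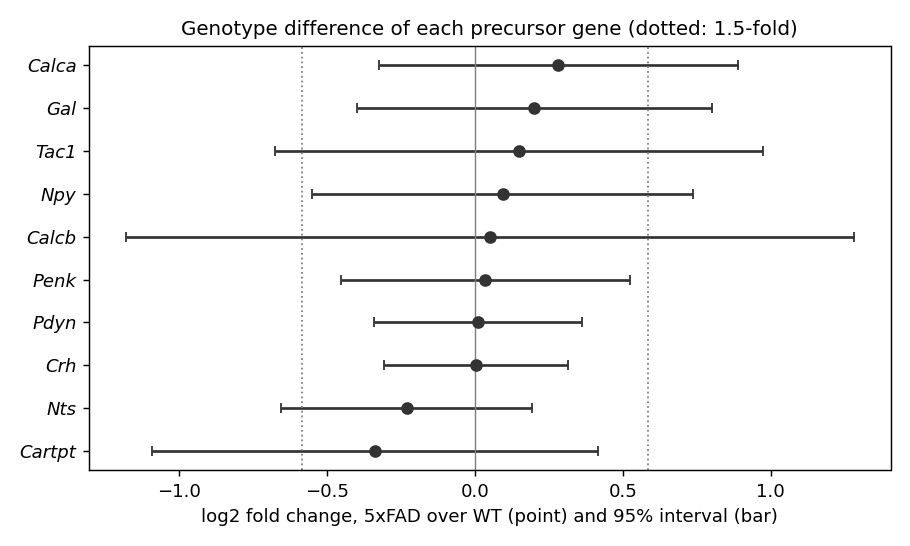
Log2 fold change of each precursor gene, 5xFAD over WT, as a point with its 95% interval from limma, with 0 as a solid line and 1.5-fold as dotted lines. Every interval crosses 0, and those of Penk, Pdyn and Crh stay between the dotted lines.

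Gal (ENSMUSG00000024907.8) read 146, 186 and 105 normalized counts in WT 62, 63 and 66 and 122, 218 and 162 in 5xFAD 64, 65 and 79. The lowest library was WT 66 and the highest 5xFAD 65, and the groups overlapped. The mean was 146 ± 40.3 over the WT libraries and 168 ± 48.2 over the 5xFAD libraries (SD, n = 3 each). The log2 ratio was 0.20 (95% interval −0.40 to 0.80, SE 0.26, adjusted p 0.9995 by limma). The value was −0.0135 without WT 66 and −0.00935 without 5xFAD 65.

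Npy (ENSMUSG00000029819.7), whose peptide is found with noradrenaline in part of these neurons, read 21.4, 36.1 and 24.5 in the WT libraries and 25.4, 36.4 and 25.0 in the 5xFAD ones. WT 63 and 5xFAD 65 stood above the other 4 libraries, 1 in each genotype. The log2 ratio was 0.09 (95% interval −0.55 to 0.74, SE 0.29), and −0.0780 without 5xFAD 65. Cartpt (ENSMUSG00000021647.8) read 50.1, 38.7 and 26.5 in the WT libraries and 18.5, 36.4 and 37.0 in the 5xFAD ones, with the highest library in WT and the lowest in 5xFAD. Its log2 ratio of −0.34 (95% interval −1.09 to 0.42, SE 0.34) was the largest in size of the 10 and had an adjusted p of 0.9995 in limma. Without 5xFAD 64 it was −0.0210.

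Calca (ENSMUSG00000030669.14) read 192, 271 and 134 in the WT libraries and 187, 259 and 259 in the 5xFAD ones. The lowest value was that of WT 66 and the highest that of WT 63, so both ends of the range lay in WT. Its means were 199 ± 68.9 and 235 ± 41.4 (SD, n = 3 each). The log2 ratio, taken between means of log2 values, was 0.28 (95% interval −0.33 to 0.89, SE 0.26, adjusted p 0.9995 by limma). In the authors' deposited table the log2 ratio of Calca was 0.24. Without WT 63 the log2 ratio was 0.53, with an unadjusted p of 0.0285 and an adjusted p of 0.815 in the limma test, and without WT 66 it was 0.0261. Calcb (ENSMUSG00000030666.12) read 10.2, 20.6 and 5.10 in the WT libraries and 5.78, 12.5 and 16.996 in the 5xFAD ones. The mean normalized count of Calcb was 11.99 in WT and lower, at 11.75, in 5xFAD. These values rest on 5 to 24 reads per library. The log2 ratio of 0.05 (SE 0.55) turned with the tool, to −0.0387 in edgeR, and to −0.40 without WT 66. WT 66 was the lowest library and WT 63 the highest for both CGRP genes.

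Tac1 (ENSMUSG00000061762.13) read 377, 494 and 215 in the WT libraries and 381, 473 and 304 in the 5xFAD ones, which is 0.15 as a log2 ratio (95% interval −0.68 to 0.98, SE 0.33). WT 66 was again lowest and WT 63 highest. The log2 ratio of Tac1 was −0.18 without WT 66, −0.00798 without 5xFAD 65 and 0.41 without WT 63. Nts (ENSMUSG00000019890.5) read 178, 175 and 202 in WT and 115 in 5xFAD 65, the lowest library, with 199.9 and 169 in 5xFAD 64 and 79. Its log2 ratio was −0.23 (95% interval −0.66 to 0.19, SE 0.19), and −0.00888 without 5xFAD 65. Nts thus ran opposite to Gal, being highest in WT 66 and lowest in 5xFAD 65.

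Penk (ENSMUSG00000045573.10) read 1156, 1450.3 and 947 in the WT libraries and 1097, 1508 and 1034 in the 5xFAD ones, with WT 63 and 5xFAD 65 above the other 4 libraries. Its means were 1185 ± 253 and 1213 ± 257 (SD, n = 3 each), and the log2 ratio was 0.04 (95% interval −0.45 to 0.52, SE 0.20). Pdyn (ENSMUSG00000027400.12) read 155, 138 and 120.5 in the WT libraries and 116, 158 and 144 in the 5xFAD ones, which is 0.01 as a log2 ratio (95% interval −0.34 to 0.36, SE 0.16). The means of Pdyn were 138 ± 17.3 and 139 ± 21.7. Without 5xFAD 65 the log2 ratios turned to −0.13 for Penk and −0.0863 for Pdyn, and without WT 66 to −0.11 and −0.0813.

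Crh (ENSMUSG00000049796.5), whose defining neurons in this region are those of Barrington's nucleus, was the steadiest of the 10. It read 124, 147 and 131 in the WT libraries and 117, 140.4 and 147 in the 5xFAD ones, and its highest library was 1.26 times its lowest. The log2 ratio was 0.00325 (95% interval −0.31 to 0.32, SE 0.14, adjusted p 0.9995 by limma). No marker of Barrington's nucleus other than Crh was on the lists, so the part of the punches that it made up was not measured.

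**Figure D3:**
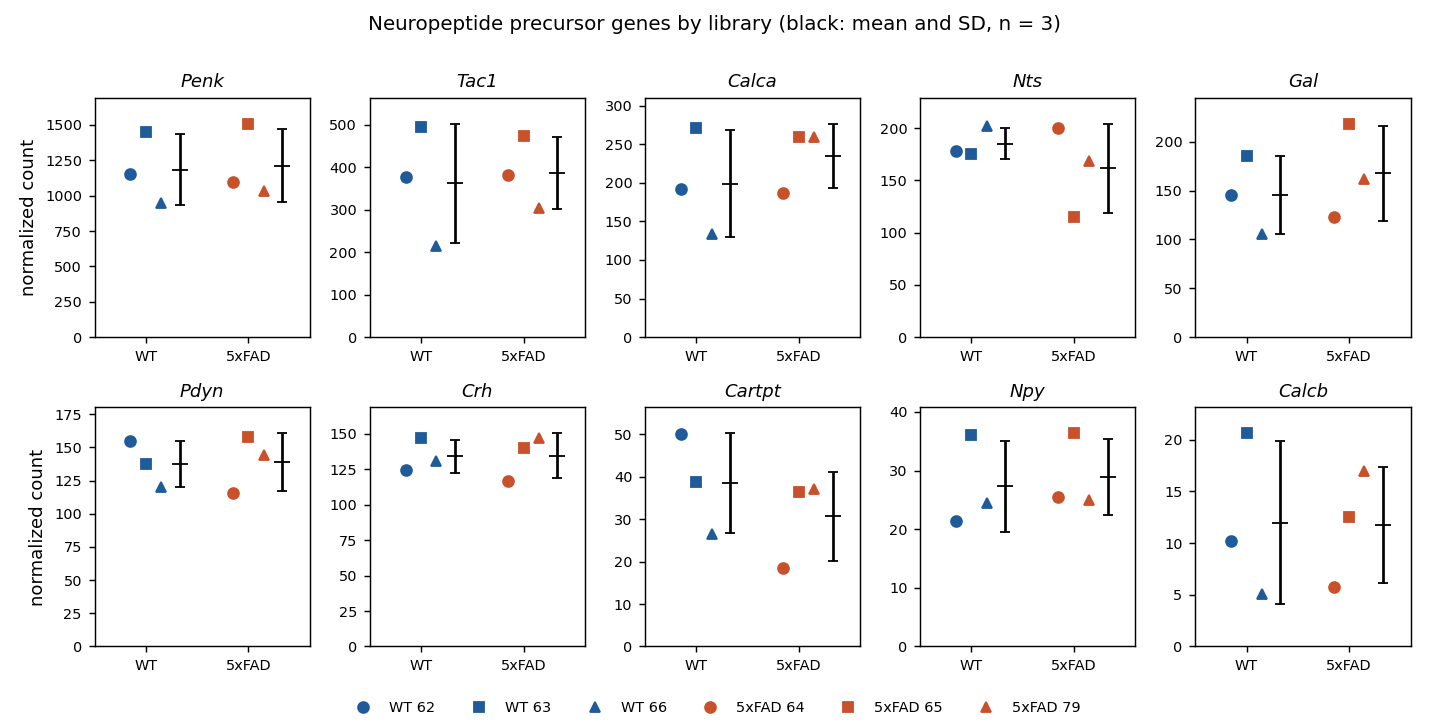
Normalized count of each precursor gene by library, with WT in blue and 5xFAD in orange, a symbol for each library and the mean and SD of 3 libraries in black. The genotypes overlap in every panel, and in Penk, Tac1, Npy and Gal the WT 63 and 5xFAD 65 points are the highest.

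The spread between libraries of one genotype was larger than counting noise in most of the precursors. The squared deviations of reads within genotypes, relative to their expectation, were 54.9 times what counting alone gives for Penk, 37.0 times for Tac1, 15.8 times for Calca and 12.2 times for Gal, where the median of all tested genes was 2.52. Such multiples grow with the number of reads. Crh, at 1.42 times, and Npy, at 1.92 times, were the 2 below 2. Pdyn was at 2.62 times, Cartpt at 3.44, Calcb at 3.96 and Nts at 5.85.

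The same libraries recurred at the ends of this spread. WT 63 was among the 2 highest libraries for 8 of the 10 precursors and 5xFAD 65 for 5, while WT 66 was among the 2 lowest for 8 and 5xFAD 64 for 6. The lowest library was WT 66 for 5 genes, namely Gal, Calca, Calcb, Penk and Tac1. WT 66 was also lowest in 3 noradrenergic genes: Dbh, which converts dopamine to noradrenaline, at 1281 against 1879 to 2895 elsewhere, Th, the rate-limiting enzyme, at 434 against 649 to 1100.2, and Slc6a2, the noradrenaline transporter, at 2311 against 3493 to 4978. None of these 3 passed between the genotypes, with log2 ratios of 0.23, 0.24 and 0.24 (SE 0.31, 0.35 and 0.29), all of which turned below 0 without WT 66.

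Of the 10 precursors, Gal kept the closest step with these 3 genes. The root mean square difference between its centred log2 profile over the 6 libraries and their mean profile was 0.129, where its own spread was 0.351. The same difference was 0.167 for Tac1, 0.178 for Calca and 0.201 for Penk, and 0.607 for Nts. It was more than the gene's own spread for Nts (0.268), for Crh (0.347 against 0.123), for Pdyn (0.273 against 0.169) and for Npy (0.307 against 0.282). Gal and Calca were closest to each other among the 10, at 0.151, and Penk was closest to Npy, at 0.152. A difference below a gene's own spread was common. Of 12295 genes with a mean of at least 50, 4781 lay nearer to the Gal profile than its own spread. These are descriptions over 6 libraries, which share tissue and depth within each library.

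**Figure D4:**
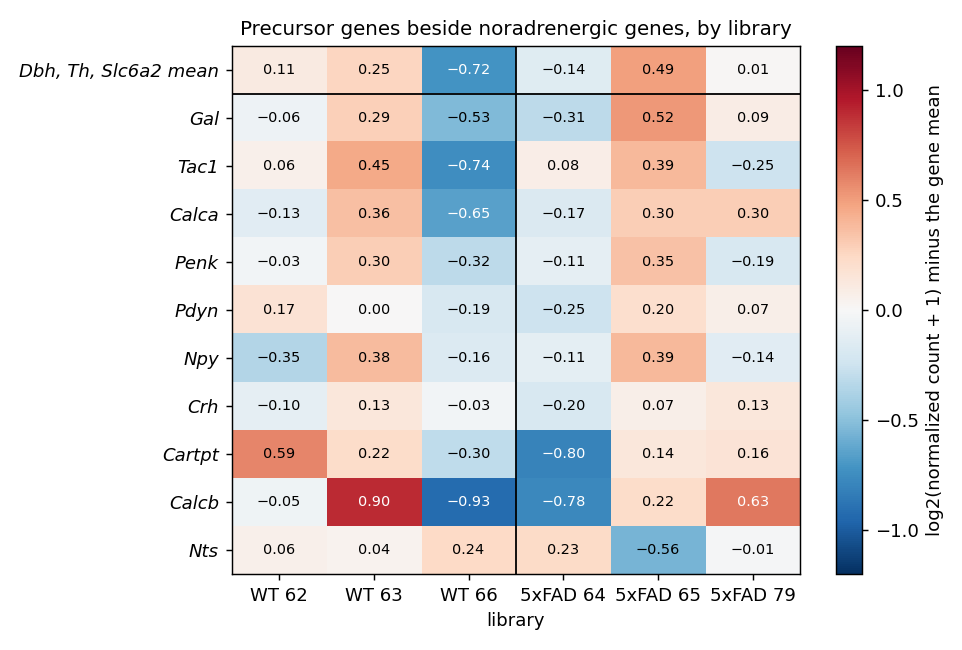
Each cell gives the log2(normalized count + 1) of a gene in 1 library minus that gene's mean over the 6 libraries, with the mean of Dbh, Th and Slc6a2 in the top row and the precursors below it in order of their difference from that row. Gal, Tac1, Calca and Penk each have their lowest cell in WT 66, and Nts at the bottom has its lowest value, −0.56, in 5xFAD 65.

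Set against the noradrenergic genes of the same library, the precursors still did not separate the genotypes. On the log2 scale, the Gal level minus the mean of Dbh, Th and Slc6a2 came to −3.71, −3.52 and −3.36 for the WT libraries and −3.72, −3.52 and −3.47 for the 5xFAD ones. The 2 genotypes overlapped, and the range over all libraries narrowed from 1.05 for Gal itself to 0.358. The difference between the genotypes was −0.0390 for Gal (two-sided exact permutation p = 0.7), −0.58 for Cartpt (exact p = 0.2) and −0.20 for Penk (exact p = 0.2). Over the 10 precursors the exact p ran from 0.2 to 0.9, unadjusted, where 3 against 3 allows no p under 0.1. The range narrowed for 6 of the 10 and widened for Npy, Pdyn, Nts and Crh. With the same 3 genes as a covariate in limma, 1 of the 10 had a higher and 9 a lower value in 5xFAD, and 0 passed.

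Other tissue in the punches moved with these libraries too. WT 63 and 5xFAD 65, the highest libraries for Gal, Tac1, Penk and Npy and for Dbh, Th and Slc6a2, were also highest for the cerebellar granule list, at 5015 and 6708 against 329 to 3795, and for the Purkinje list, at 8753 and 11308 against 1458 to 5224. All 4 genes of each list had reads in every library. The part of cerebellar tissue in the Gal, Tac1, Penk and Npy values was not tested. WT 63 and 5xFAD 65 were also lowest for the summed oligodendrocyte list, at 162698 and 153204 against 194476 to 247319. The same held for the summed astrocyte list, at 43201 and 41381 against 45408 to 50517. The summed microglia list was lowest in WT 63, at 1628, but read 1851 in 5xFAD 65. The part of glial content in the precursor values was not tested. WT 63 and WT 66, at the 2 ends for Calca, Calcb and Tac1, were at the 2 ends of the summed cholinergic list, at 2046 and 539. All 4 of its genes also had reads in every library. Isl1, 1 of the 4, was instead highest in WT 62, at 64.1, and lowest in 5xFAD 64, at 20.8. The part of cholinergic neurons in the Calca, Calcb and Tac1 values was not tested. WT 63 and WT 66 were also at the 2 ends of the mesencephalic trigeminal list, at 734 and 369 with Runx3 at 0 in both, and the part of those neurons was not tested either. Among the pontine glutamatergic markers, Lmx1b read 199 in WT 63 and 86.8 in WT 66, its highest and lowest libraries. Foxp2 was also highest in WT 63, at 206, but was lowest in 5xFAD 79, at 143, and read 157 in WT 66. Slc17a6, the vesicular glutamate transporter, was highest in WT 66, at 6182 against 4917 to 6134 in the other libraries. The part of parabrachial tissue in the Calca, Calcb and Tac1 values was not tested. WT 66, the highest library for Nts, also held the most choroid plexus transcripts, at 1240 for the summed list against 60.4 to 110 in the other libraries, and their part in the Nts values was not tested.

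The genes whose profiles lay nearest to each precursor, among 12295 candidates with a mean of at least 50, were named by a fixed rule. Those nearest to Gal were Bdnf, a neurotrophin, at a root mean square difference of 0.0694, and Irs4, an adaptor of insulin signalling, at 0.0848. Nearest to Calca were Stk32b at 0.0710 and the potassium channel subunit Kcns2 at 0.0995. Calcb had Chodl, a marker of fast motor neurons, at 0.243 and Slc5a7, the choline transporter of cholinergic terminals, at 0.276. Tac1 had Trhde, a peptidase that degrades thyrotropin-releasing hormone, at 0.0939 and Igfbp3 at 0.102. Penk had Pitpnm3 at 0.0270 and the vesicle calcium sensor Syt1 at 0.0315, and Npy had Eml5 at 0.0684 and Pcdh8 at 0.0742. Nearest to Cartpt were Prrxl1 at 0.182 and Tmem203 at 0.187, and nearest to Pdyn were Zfp341 at 0.0410 and Ankrd34a at 0.0479. Crh had Nip7 at 0.0325 and Mtus2 at 0.0331, and Nts had an unnamed gene model at 0.0510 and Atp10b at 0.0787. With 6 libraries and this many candidates, small differences are found for any profile.

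Of 35 other neuropeptide precursors, 13 passed the filter, 7 were at 0 in all libraries and 0 were called by limma, against 0.00609% of all genes. Of the 13, 5 had higher and 8 lower values in 5xFAD, with a median log2 ratio of −0.09. Adcyap1, which encodes PACAP, had the highest mean of them and read 753, 968 and 587 in the WT libraries and 735, 860.0 and 751 in the 5xFAD ones. Vip, whose product is vasoactive intestinal peptide, read 78.0, 85.2 and 87.8 in the WT libraries and 31.2, 41.6 and 79.98 in the 5xFAD ones, which is −0.81 as a log2 ratio (SE 0.31, unadjusted p = 0.0268, limma adjusted p = 0.9995). The library 5xFAD 79 lay within the WT range. Npff, the precursor of neuropeptide FF, read 12.1, 13.8 and 14.3 in the WT libraries and 25.4, 18.7 and 17.996 in the 5xFAD ones, which is 0.58 as a log2 ratio (SE 0.30, limma adjusted p = 0.9995).

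The genotypes did not overlap in 2 of the 13, Npff and Nps, against 7.42% of all genes. Nps, the neuropeptide S precursor, which is made by neurons beside the locus coeruleus, was chosen for mention after its values were seen, as was Rln3. Nps read 31.6, 33.5 and 19.4 in the WT libraries and 34.7, 55.1 and 36.0 in the 5xFAD ones, which is 0.56 as a log2 ratio (unadjusted p = 0.0839). Rln3, the relaxin-3 precursor, which marks the nucleus incertus near the midline, read 422, 148 and 25.5 in the WT libraries and 8.09, 129 and 134 in the 5xFAD ones. Its highest library was WT 62 and its lowest 5xFAD 64, the widest range among the 13.

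Genes that make, store and release peptides did not pass either. All 19 were tested, 8 with higher and 11 with lower values and a median log2 ratio of −0.01. Of these, limma called 0, against 0.00609% of all genes, and 0 had an unadjusted p under 0.05, against 2.32%. Cpe, the carboxypeptidase that trims cut precursors, had the highest mean and read 19071, 17553 and 19179 in the WT libraries and 18002, 17494 and 17378 in the 5xFAD ones, which is −0.08 as a log2 ratio (SE 0.06). Vgf, a granin-like vesicle protein, read 2534, 2616 and 1787 in the WT libraries and 1715, 2039 and 2044 in the 5xFAD ones, which is −0.24 as a log2 ratio (SE 0.16). Cadps, which primes dense-core vesicles for release, had one of −0.11 (SE 0.08). The 95% interval lay within 1.5-fold for 15 of the 19, against 71.4% of all tested genes.

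Receptors and binding partners of the 10 peptides numbered 24, of which 20 were tested, 13 with higher and 7 with lower values and a median log2 ratio of 0.04. The limma test called 0, against 0.00609% of all genes, and 0 had an unadjusted p under 0.05, against 2.32%. Crhr1, the main receptor for corticotropin-releasing hormone, read 280.4, 327 and 253 in the WT libraries and 312, 383 and 298 in the 5xFAD ones, which is 0.20 as a log2 ratio (SE 0.13). Calcrl, the receptor that binds CGRP together with Ramp1, had one of −0.20 (SE 0.14), and the sorting receptor Sort1, which binds neurotensin and had the highest mean of the list, one of 0.05 (SE 0.09). The genotypes did not overlap in 1 of the 20, against 7.42% of all tested genes, namely Galr1, a galanin receptor named after its values were seen, at 20.8 to 26.7 normalized counts over all libraries.

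Among 14 peptidases that can degrade neuropeptides, on the cell surface or inside cells, 13 were tested, 8 with higher and 5 with lower values and a median log2 ratio of 0.02, and limma called 0 (0.00609% of all genes), with 2 at an unadjusted p under 0.05 (2.32% of all genes). Mme, which encodes neprilysin, a peptidase that cleaves enkephalins and substance P as well as amyloid-beta, had 384, 338 and 442 in the WT libraries and 226, 172 and 202 normalized counts in the 5xFAD ones. All 3 5xFAD libraries lay below all 3 WT libraries, and the log2 ratio was −0.95 (SE 0.13, limma adjusted p = 0.311). Mme passed without the filter on low values (limma adjusted p = 0.00715) and in DESeq2 on recovered reads (adjusted p = 1.73e-05). It did not pass in the other 14 alternatives, edgeR among them (adjusted p = 0.301), whose adjusted p ran from 0.0635 upward. Its substrate precursors, Penk and Tac1, had log2 ratios of 0.04 and 0.15. Anpep, an aminopeptidase of pericytes that also cuts enkephalins, read 20.4, 32.7 and 35.7 in the WT libraries and 45.1, 47.8 and 46.0 in the 5xFAD ones, which is 0.67 as a log2 ratio (SE 0.25, unadjusted p = 0.0264, limma adjusted p = 0.9995). Lnpep, with the highest mean of the list, had one of −0.03 (SE 0.06). Against 7.42% of all tested genes, the genotypes did not overlap in 3 of the 13, Mme, Anpep and, named after its values were seen, Thop1, which read 328 to 356 over all libraries.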

How the data were processed

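Poly-A selected RNA of locus coeruleus punches was sequenced on an Illumina instrument, per the labels' protocols. The build mm39 and the tools STAR, RSEM and DESeq2 are listed in the submitters' processing notes. The annotation is not given in the sources used here, nor is the strand setting. The deposited table is named as TPM, but its library columns hold a normalized signal that the authors made by dividing counts by size factors: 100% of values were whole multiples of 1 step (tolerance 0.001), and multiplying by the size factors gave whole reads. The deposited table also holds, from the authors, a log2 fold change, its error, a score that is their ratio, and the authors' p-value and adjusted p-value, per the file headers.

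Symbols came from a table of gene names, which matched 52073 of 56923 identifiers, all 10 precursors included. Genes at 10 or more normalized counts in 3 or more libraries were put on the log2(normalized count + 1) scale and compared by limma 3.58.1 in R 4.3.3 (variance trend, robust moderation, Benjamini-Hochberg adjustment over all tested genes at 0.05). This scale understates the change of low genes. Alternatives were edgeR 4.0.16 and DESeq2 1.42.0 on recovered reads, other pseudocounts, filters and scalings, a noradrenergic covariate, and leaving out each library. Exact permutation tests were two-sided. Transcript lengths and reading frames came from GENCODE M21, built on GRCm38 rather than mm39, and genome positions were left out. On simulated data for this comparison (16411 genes, 5 sets), limma recovered 53.2% of genes changed 1.5-fold and 76% of those changed 2-fold. There were 14.4 false calls per set. The simulation changed many genes per set, taken at random, and drew each gene independently, whereas limma called 1 gene in the data. The SD within genotypes on the log2 scale ran from 0.15 for Crh to 0.82 for Calcb among the precursors. Its median over all tested genes was 0.138. The recovered shares therefore do not give the power for the 10 precursors.

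The precursors and gene lists were chosen with earlier results of these data known. The rule for named genes took all 10 precursors, Dbh, Th and Slc6a2, from each pathway list the 2 with the smallest p and the 1 with the highest mean, and the 2 nearest profiles of each precursor. Foxp2, Lmx1b, Slc17a6, Isl1, Runx3, Nps, Rln3, Galr1 and Thop1 fall outside this rule and were named after their values were seen. Beyond these, 1 marker gene is not reported here.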

Additional observations from a re-analysis of the deposited data

How the results depend on the processing

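None of the 10 precursors passed under any of the 16 alternatives run. Over all genes, limma called 1 gene, against 0 with a mean of at least 50, 0 without trend and robust moderation, 4 with DESeq2, and 0 to 2 with 1 library left out. Of the pathway lists, 1 gene (Mme) was called without a filter and 1 with DESeq2, against 0. Of 392 values of the 25 named genes, 36 turned sign, 25 of them with 1 library left out, and none of those was a called value. Crh turned to −0.00945 with quantile normalization, and Calcb to −0.0387 with edgeR and −0.0325 with DESeq2. With the noradrenergic covariate, Gal was −0.0101, Calcb −0.29, Npy −0.0156, Penk −0.11, Pdyn −0.0782, Tac1 −0.0929, Crh −0.0310 and Adcyap1 −0.0847. The covariate was not applied to the genes it was made from. With 1 library left out, log2 fold changes ran from −0.0135 to 0.41 for Gal, −0.40 to 0.51 for Calcb, −0.0780 to 0.31 for Npy, −0.13 to 0.19 for Penk, −0.0863 to 0.14 for Pdyn, −0.18 to 0.41 for Tac1, −0.0627 to 0.10 for Crh, −0.13 to 0.23 for Adcyap1, −0.0541 to 0.43 for Dbh, −0.0836 to 0.42 for Th, −0.0425 to 0.43 for Slc6a2, −0.0469 to 0.15 for Sort1 and −0.0662 to 0.00303 for Lnpep. Levels relative to the noradrenergic genes ran from −0.13 to 0.0466 for Gal, −0.0891 to 0.15 for Calca, −0.55 to 0.0863 for Calcb, −0.41 to 0.0944 for Npy, −0.22 to 0.0174 for Tac1 and −0.40 to 0.0468 for Crh. The cause was not tested. No scaling moved the median of all genes by 0.1. With a mean of at least 50, Calcb, Cartpt and Npy were not tested. No paired analysis was possible because the genotypes share no replicate number. Depth limits Calcb most, at 5 to 24 reads per library.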
